A study of Homo sapiens with 12 samples.

Results

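The 6 genes described here encode potassium channel subunits in WI-38 cells, a line of normal human lung fibroblasts. They are KCNH1, KCNG1, KCNMA1, KCNK2, KCNJ8 and KCNE4, which are 6 of the 25702 genes in the count table and 6 of a list of 105 potassium channel genes, 104 of which the count table holds. They were chosen by name with earlier results of these data known, and no threshold was recorded. Their RNA levels and their differences between conditions are therefore given as a description, with standard errors but without p-values, and the counts of calls among them support nothing.

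The study compared fibroblasts before and after short and long exposure to TGF-β, the cytokine that turns fibroblasts into contractile, matrix-producing myofibroblasts. The groups were cultures without TGF-β at day 1 (D1) and at day 20 (D20), and cultures kept in 2 ng/mL TGF-β for 1 day (D1+ TGF-β) or 20 days (D20+ TGF-β). Libraries were made from 3 flasks per condition (n = 3), 12 in all. All flasks held the same line in low-glucose medium, at passages 2 to 3 for the day 1 groups and 5 to 6 for the day 20 groups. The day 1 flasks were harvested the day after treatment or a change of medium. In the day 20 cultures the medium was renewed every 2 days with or without the cytokine. The D20 flasks of each treatment descended from 1 treated and 1 untreated flask, so that the spread between them does not measure independent treatments, and time and passage number cannot be told apart. Library totals ran from 8674488 to 18286197 counts.

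Levels are given as cpm, counts relative to the library total after edgeR's TMM scaling, on a common scale. Genes that reached 10 cpm in 6 or more libraries were fitted with edgeR (9490 genes), and lower genes were taken from a wider fit (13768 genes, 4278 of them below that limit). KCNH1, KCNG1 and KCNMA1 were in the first fit. KCNH1 passed its limit through the 6 TGF-β libraries alone, and so did KCNG1. KCNK2, KCNJ8 and KCNE4 were among the lower genes. The threshold for a call was an adjusted p of 0.01 from the quasi-likelihood test of edgeR, with Benjamini-Hochberg values computed over the genes of the fit.

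All 10 fibroblast markers on a fixed list, collagen genes among them, averaged over 10 cpm in every condition. Summed endothelial markers lay between 0.447 and 2.58 cpm in the 12 libraries, with 1 of the 4 at 0 in each condition. Of 4 leukocyte markers, 1 averaged over 10 cpm in each condition, with sums of 37.9 to 61.8 cpm. Of 6 epithelial markers, 2 or 3 did so, with sums of 36.4 to 63.2 cpm. By the root mean square difference in log2 cpm from the other flasks of its condition, D1 replicate 2 stood farthest away (0.335), followed by D20+ TGF-β replicate 3 (0.294), while the D1+ TGF-β and D20 flasks lay at 0.132 to 0.155. Each library is the RNA of a whole flask, so more cells with a transcript and more transcript per cell cannot be told apart.

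Potassium channels let potassium ions leave the cell and so hold the membrane potential negative, which in cells without action potentials sets the drive for calcium entry and contributes to the control of volume and division. Pore-forming subunits differ in what opens them, such as voltage, calcium, stretch or the loss of ATP, and auxiliary subunits change how fast and how readily a pore opens. In fibroblasts the large-conductance calcium-activated channel and inward rectifiers are well known currents.

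The letters upstream of the genes whose RNA was higher in every TGF-β flask than in every untreated flask at both times are shown here, where the RefSeq promoter table held a window (KCNH1, KCNK2 and KCNJ8). They are the 250 bases before the annotated start, read 5′ to 3′ on the gene's strand. The RefSeq table is of build GRCh38.p14, and each window matched GRCh37 (hg19), the build of the counts, at exactly 1 place. Capitals mark a SMAD box, CAGAC, or a GC-rich SMAD motif, GGCGC, on either strand, both being short motifs that SMAD proteins of the TGF-β pathway can bind. KCNH1 lies upstream at chr1:211307491-211307740 (minus strand), the second of the KCNK2 starts at chr1:215255830-215256079 (plus strand), and KCNJ8 at chr12:21927641-21927890 (minus strand).
KCNH1: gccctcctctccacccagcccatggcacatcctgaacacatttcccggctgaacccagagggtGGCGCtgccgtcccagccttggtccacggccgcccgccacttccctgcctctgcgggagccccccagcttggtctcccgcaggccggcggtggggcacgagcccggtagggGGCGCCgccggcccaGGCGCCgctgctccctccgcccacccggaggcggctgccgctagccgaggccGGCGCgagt
KCNK2: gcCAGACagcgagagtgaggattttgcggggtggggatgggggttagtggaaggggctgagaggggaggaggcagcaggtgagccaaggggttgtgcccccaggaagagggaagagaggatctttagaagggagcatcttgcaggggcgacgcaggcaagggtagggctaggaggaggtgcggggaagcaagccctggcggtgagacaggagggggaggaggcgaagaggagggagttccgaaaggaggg
KCNJ8: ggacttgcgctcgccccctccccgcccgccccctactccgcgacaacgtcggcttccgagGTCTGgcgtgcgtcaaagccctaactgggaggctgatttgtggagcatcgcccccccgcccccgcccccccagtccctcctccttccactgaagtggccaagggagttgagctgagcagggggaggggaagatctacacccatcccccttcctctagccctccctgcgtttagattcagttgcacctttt

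The KCNH1 window was 75.6% G and C and held 6 matches to GGCGC counted on both strands, of which overlapping ones share letters so that 4 capital stretches appear. The KCNK2 and KCNJ8 windows held 1 match each to CAGAC, the latter on the opposite strand, with 63.6 and 64.8% G and C. Of all 35116 windows of this length in the table, 44.5% held GGCGC and 38.0% held CAGAC, and their median G and C content was 58%. An upstream KCNK2 start, at chr1:215178635-215178884, held neither motif and was 42.8% G and C. KCNMA1, whose RNA did not move in this way, had 10 matches to GGCGC and 1 to CAGAC before the first of its starts, in a window of 85.6% G and C, and 2 sites for the AP-1 factors, TGANTCA, before a second start. That AP-1 motif stood in 6.57% of all windows. No window of these genes held the cAMP response element TGACGTCA (1.65% of all windows), a CArG box (1.16%) or the TATA box TATAAA (10.7%), searched on both strands. These matches are letters in a window and not shown to be bound. GENCODE places the outer end of KCNJ8 farther upstream than RefSeq does, so that its window lies within the gene span given below. The KCNK2 window shown, which precedes the second start, also lies within the span given for that gene. The KCNH1 window overlaps the outer end of its span.

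**Figure D1:**
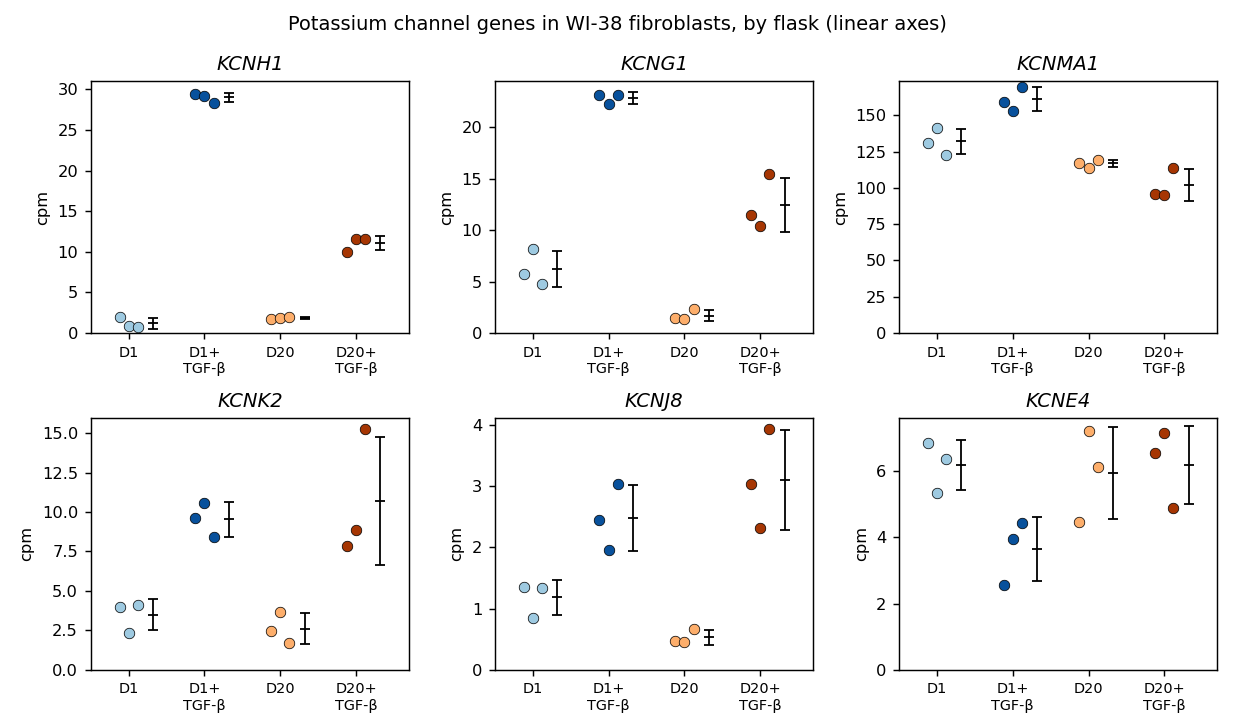
Levels of the 6 genes in cpm (linear axes from 0), with a point for each of the 3 flasks of a condition and the mean ± SD beside them. KCNH1, KCNG1, KCNK2 and KCNJ8 were higher in all TGF-β flasks than in the untreated flasks of the same day, while KCNMA1 was above its untreated flasks at day 1 and below them at day 20, and KCNE4 was lowest at D1+ TGF-β.

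KCNH1 encodes EAG1, a pore subunit of a voltage-gated channel that is best known from brain and from tumour cells. It lies at chr1:210850165-211307507 on the minus strand (GRCh37). The gene was nearly silent without TGF-β, with 1.94, 0.849 and 0.754 cpm in the D1 flasks, which rest on 23, 13 and 9 counts. It stood at 29.4, 29.2 and 28.3 cpm at D1+ TGF-β. The 3 treated flasks lay close together and far above the untreated ones. At D20 the flasks had 1.71, 1.79 and 1.98 cpm, and at D20+ TGF-β 10.03, 11.6 and 11.6 cpm. Treated and untreated flasks did not overlap at either time.

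The fitted log2 fold change of KCNH1 was 4.64 ± 0.19 (SE, n = 3 flasks per condition) for D1+ TGF-β vs D1, a 24.9-fold difference. For D20+ TGF-β vs D20 it was 2.57 ± 0.19, or 5.93-fold. Within the treated cultures KCNH1 was 2.63-fold lower at day 20 than at day 1, a log2 fold change of -1.40 ± 0.14, without overlap. The untreated flasks of the 2 days overlapped (0.67 ± 0.28, D20 vs D1). The log2 response to TGF-β at day 20 minus that at day 1 was -2.07 ± 0.31. One D1 flask, replicate 1, was above the other two, and without it the day 1 log2 fold change was 5.15, that of D20 vs D1 was 1.19 and passed the call, and the difference of responses was -2.58.

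KCNG1 encodes a silent voltage-gated subunit, which makes no channel alone and alters channels made by Kv2 subunits when it joins them. The gene is at chr20:49620193-49639644 on the minus strand. Its level was 5.75, 8.16 and 4.77 cpm at D1 and 23.1, 22.2 and 23.1 cpm at D1+ TGF-β. At D20 it was 1.43, 1.34 and 2.34 cpm, and at D20+ TGF-β 11.5, 10.4 and 15.4 cpm. No pair of conditions overlapped, and the order was D1+ TGF-β, D20+ TGF-β, D1, D20.

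The log2 fold change of KCNG1 with TGF-β was 1.85 ± 0.19 at day 1 and 2.81 ± 0.24 at day 20, or 3.60-fold and 7.02-fold. Unlike KCNH1, it was also lower at D20 than at D1 without treatment (-1.83 ± 0.26), a 3.57-fold difference. Among treated cultures it was 1.83-fold lower at day 20 (-0.87 ± 0.18). The responses at the 2 times differed by 0.96 ± 0.32, which was not called. Replicate 3 of D20 was the highest untreated flask of that day, and the day 20 response without it was 3.16.

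KCNMA1 encodes the pore of the large-conductance BK channel, which opens on calcium and depolarization together. It is at chr10:78629359-79398127 on the minus strand. It averaged 128 cpm over the 12 libraries, and its SD between flasks was 0.10 on the log2 scale against 0.31 to 0.43 for the other 5 genes. These SDs include counting error, which weighs more on low genes. KCNMA1 had 944 to 2748 counts per library, and KCNJ8 at D20 had 5, 6 and 11. The flasks held 131, 141 and 123 cpm at D1 and 159, 153 and 169.7 cpm at D1+ TGF-β, and then 117, 114 and 119 cpm at D20 and 95.6, 95.2 and 114 cpm at D20+ TGF-β. The ranges of the conditions stayed apart from each other, in the order D1+ TGF-β, D1, D20, D20+ TGF-β, though the highest D20+ TGF-β flask and the lowest D20 flask both round to 114 cpm.

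With TGF-β the KCNMA1 log2 fold change was 0.29 ± 0.08 at day 1 (1.22-fold higher) and -0.20 ± 0.08 at day 20 (1.15-fold lower), and neither was called. The day 1 value was called by DESeq2 and when D1 replicate 2 or D20+ TGF-β replicate 3 was left out, at 0.29, 0.34 and 0.28. The difference of the responses was -0.49 ± 0.12. It was called in the fit of genes over 10 cpm and not when the same gene was fitted among the 13768 genes, nor when any of 10 of the 12 libraries was left out. Treated cultures at day 20 had 1.58-fold less KCNMA1 RNA than at day 1 (-0.66 ± 0.08), which was called and stayed so under every alternative. Untreated cultures differed by -0.17 ± 0.08 (D20 vs D1). Without D20+ TGF-β replicate 3, the day 20 log2 fold change was -0.29 and was called.

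KCNK2 encodes TREK-1, a leak channel with tandem pore domains that stretch, heat and lipids open. Its position is chr1:215179118-215410433 on the plus strand. The levels were 3.97, 2.35 and 4.10 cpm at D1, 9.65, 10.6 and 8.40 cpm at D1+ TGF-β, then 2.47, 3.65 and 1.68 cpm at D20, and 7.85, 8.87 and 15.3 cpm at D20+ TGF-β. All treated flasks were above all untreated ones, and the days overlapped within each treatment. Replicate 3 of D20+ TGF-β, the flask of that condition farthest from the others over all genes, had the highest value.

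The KCNK2 log2 fold change with TGF-β was 1.49 ± 0.30 at day 1 (2.82-fold) and 2.03 ± 0.30 at day 20 (4.10-fold). Without D20+ TGF-β replicate 3 the second value was 1.69 and still called, and without D1+ TGF-β replicate 2 the first was 1.40 and was no longer called. Day 20 and day 1 differed by 0.09 ± 0.26 with TGF-β and by -0.45 ± 0.34 without it. The responses at the 2 times differed by 0.54 ± 0.43, which was not called.

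KCNJ8 encodes an inward rectifier that forms the pore of ATP-sensitive channels, which open when the ratio of ATP to ADP falls. It is at chr12:21917889-21928534 on the minus strand. Its flasks held 1.35, 0.849 and 1.34 cpm at D1, 2.44, 1.95 and 3.03 cpm at D1+ TGF-β, then 0.476, 0.447 and 0.661 cpm at D20 and 3.03, 2.32 and 3.94 cpm at D20+ TGF-β. The D20 values rest on 5, 6 and 11 counts. Treated flasks lay above untreated ones at both times, and D20 flasks lay below all D1 flasks.

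The response of KCNJ8 was 2.06-fold at day 1, a log2 fold change of 1.04 ± 0.29 that was not called, and 5.66-fold at day 20 (2.50 ± 0.31), which was. The D20+ TGF-β and D1+ TGF-β flasks overlapped (0.33 ± 0.25), while D20 was 2.18-fold below D1 (-1.13 ± 0.37, not called). The difference of responses, 1.46 ± 0.44, was not called.

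KCNE4 encodes a small auxiliary subunit with a single membrane span that inhibits channels formed by KCNQ1 and by some subunits of the Shaker family. It lies at chr2:223916908-224063117 on the plus strand. It had 6.85, 5.35 and 6.37 cpm at D1 and 2.56, 3.96 and 4.43 cpm at D1+ TGF-β, and then 4.47, 7.23 and 6.13 cpm at D20 and 6.56, 7.16 and 4.88 cpm at D20+ TGF-β. D1+ TGF-β stood below every flask of the other conditions, and the other conditions overlapped each other.

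The KCNE4 log2 fold change was -0.73 ± 0.22 for D1+ TGF-β vs D1 (1.66-fold lower) and 0.05 ± 0.21 for D20+ TGF-β vs D20. Between the days it was 0.71 ± 0.23 in treated cultures, without overlap, and -0.07 ± 0.21 in untreated ones. None of these was called, nor was the difference of responses of 0.78 ± 0.31. The treated cultures of the 2 days passed the call without D20+ TGF-β replicate 3, where the value was 0.84.

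**Figure D2:**
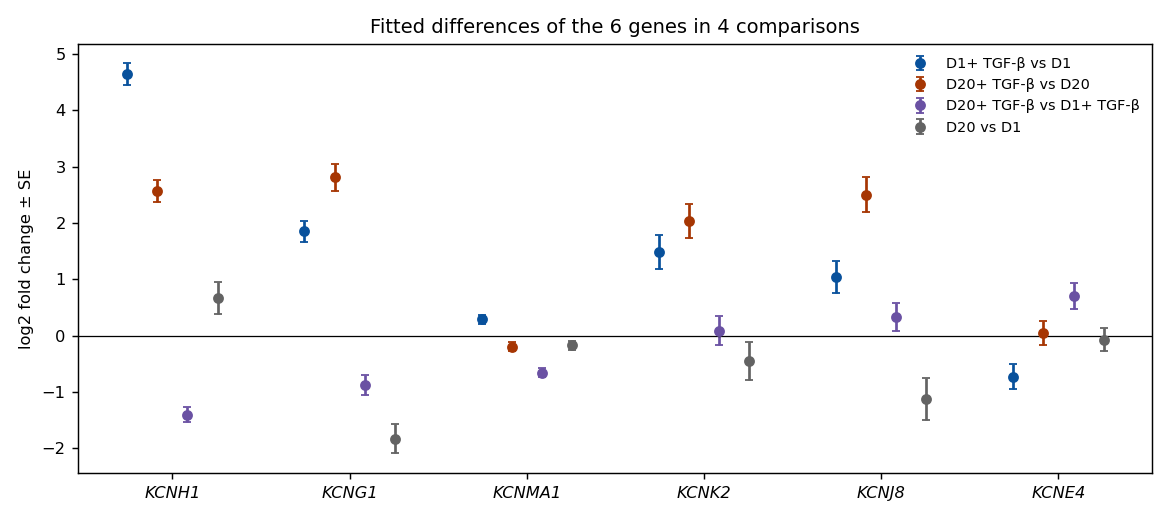
Fitted log2 fold change ± SE (vertical axis) of the 6 genes (horizontal axis) in the 4 comparisons, each between 3 and 3 flasks. The largest value is that of KCNH1 at day 1, 4.64, and the values of KCNMA1 all lie between -0.66 and 0.29.

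The 4 comparisons share libraries with each other, so their values are not independent. For D1+ TGF-β vs D1, 2 of the 3 members over 10 cpm were called, where 13.4% of all genes of that fit were, and 1 of the 3 lower members, where 6.36% of the lower genes were. At day 20 the calls with TGF-β were 2 of 3 (27.5% of genes over 10 cpm) and 2 of 3 (18.7% of lower genes). Between the days they were 3 of 3 (34.8%) and 0 of 3 (21.2%) in treated cultures, and 1 of 3 (36.4%) and 0 of 3 (22.9%) in untreated cultures. The difference of responses was called for KCNH1 and KCNMA1, 2 of the 3 over 10 cpm (10.4%), and for 0 of the 3 lower ones (4.14%). Because the members were selected with these results in view, nothing is read from the counts.

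Levels of different genes can be compared only per length, for which cpm were divided by the length of the GENCODE canonical transcript. On this scale the level of KCNMA1 was 21.0 ± 1.40, 25.7 ± 1.33, 18.7 ± 0.380 and 16.2 ± 1.74 cpm per kb in the conditions D1 to D20+ TGF-β, in the order used above (SD, n = 3). KCNG1 followed at D1+ TGF-β with 10.4 ± 0.254 cpm per kb and at D20+ TGF-β with 5.68 ± 1.20. KCNH1 reached 3.56 ± 0.0698 at D1+ TGF-β, its highest level per length. The levels per length of KCNK2, at 2.47 ± 0.286 and 2.75 ± 1.04 cpm per kb in the treated cultures of day 1 and day 20, and of KCNE4, at 1.25 ± 0.334 and 2.13 ± 0.404, were below that of KCNG1 in both on this scale. KCNJ8 stayed at or below 1.36 ± 0.358. These orders depend on the transcript. With the length of all exons together, KCNMA1 had 4.07 and KCNG1 4.21 cpm per kb at D1+ TGF-β, and at D20+ TGF-β KCNMA1 had 2.58, KCNK2 2.49 and KCNG1 2.30. KCNJ2 was then above KCNMA1 in all 4 conditions, with 5.15 at D1+ TGF-β and 11.4 against 2.96 at D20, and KCNF1 was above it at D1 and at D20.

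**Figure D3:**
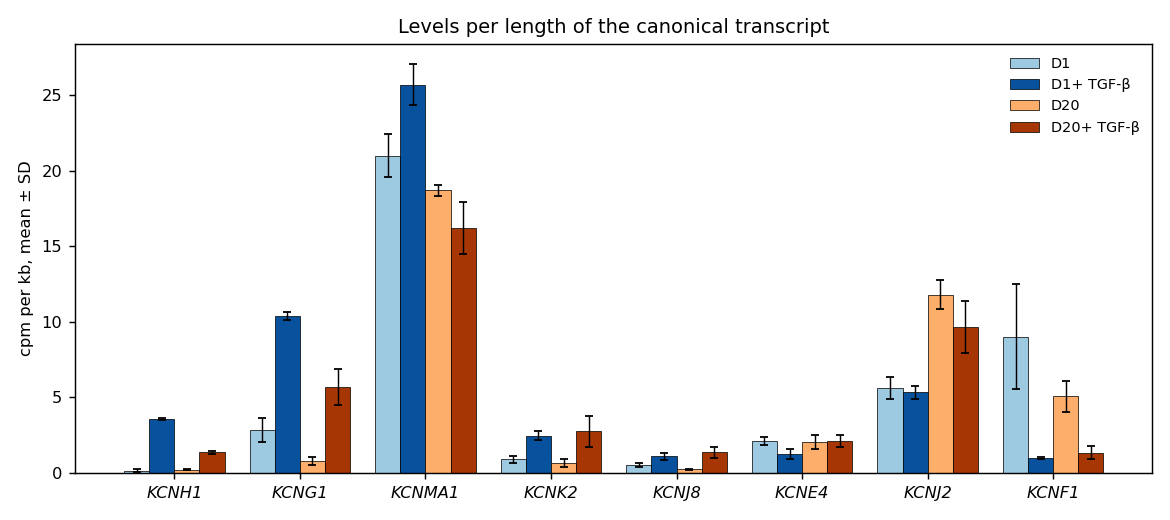
Mean ± SD (bars and lines, n = 3) of cpm per kb of canonical transcript for the 6 genes, and for KCNJ2 and KCNF1 as 2 well expressed relatives, in the 4 conditions. With this length KCNMA1 is highest of those drawn, from 16.2 to 25.7, an order that changes with the length of all exons, and KCNG1 changes from 0.778 at D20 to 10.4 at D1+ TGF-β.

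Some of these loci overlap other annotated genes, and whether the counting used strand is not given in the sources used here, so reads of both cannot be told apart. KCNMA1 overlaps the antisense transcripts KCNMA1-AS1, KCNMA1-AS2 and KCNMA1-AS3. KCNH1 shares its strand with 4 annotated genes, which are KCNH1-IT1, the pseudogene IPO8P1, and a protein-coding gene and a lncRNA gene without symbols. The protein-coding gene runs past the outer end of KCNH1. KCNG1 and KCNJ8 are each crossed by 1 lncRNA gene without a symbol on the opposite strand.

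Most listed partners and close relatives of these subunits were at 0 or too low to test, while KCNMB3, KCNA3 and ABCC9 had counts in all 12 libraries and were tested. Of 16 genes on a fixed list of partners and close relatives, 3 were tested, 6 had 0 counts in all libraries, and 7 had counts too low to test. A sum of 0 allows up to 3 counts over the 12 libraries, a limit that covers counting error only. KCNB2, a Kv2 partner of KCNG1, had 0 counts in the 12 libraries together. KCNMB1, the smooth muscle BK subunit, had 0 counts, as had LRRC26, a BK subunit of secretory epithelia. KCNMB2 and KCNMB4 had 56 and 93. KCNMB3, another BK subunit, was at 1.26 to 3.28 cpm and was not called in any comparison, with log2 fold changes of -0.05 ± 0.32 at day 1 and -0.30 ± 0.29 at day 20 with TGF-β (adjusted p = 0.941 and 0.457, edgeR). For KCNE4, its partner KCNQ1 had 1 count and KCNA1 had 0. KCNA3, the Shaker-type channel that KCNE4 inhibits, had 2.79, 2.55 and 2.51 cpm at D1 and 1.51, 2.01 and 1.98 cpm at D1+ TGF-β, and its log2 fold change of -0.48 ± 0.28 was not called (adjusted p = 0.249, edgeR). At day 20 the KCNA3 log2 fold change with TGF-β was 0.76 ± 0.29 (adjusted p = 0.0503, edgeR). The close relatives KCNK10 and KCNK4 of KCNK2 had 0 and 5 counts, and KCNH5, the nearest relative of KCNH1, had 1.

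ABCC9 encodes SUR2, the sulfonylurea receptor that assembles with the KCNJ8 pore. It had 2.54, 1.502 and 3.69 cpm at D1, 5.47, 3.52 and 4.43 cpm at D1+ TGF-β, then 1.71, 1.56 and 1.74 cpm at D20, and 4.60, 6.65 and 8.36 cpm at D20+ TGF-β. The treated and untreated flasks overlapped at day 1 and stood apart at day 20. Its log2 fold change with TGF-β was 0.79 ± 0.31 at day 1 (adjusted p = 0.0845, edgeR) and 1.93 ± 0.31 at day 20 (adjusted p = 0.000196, edgeR), so that it rose at day 20 as the KCNJ8 level did (2.50 ± 0.31). The test of the difference between the days for ABCC9 gave 1.14 ± 0.44 (adjusted p = 0.0893, edgeR), which was not called. ABCC8, which encodes SUR1, had 0 counts, and KCNJ11, the other ATP-sensitive pore, had 3.

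**Figure D4:**
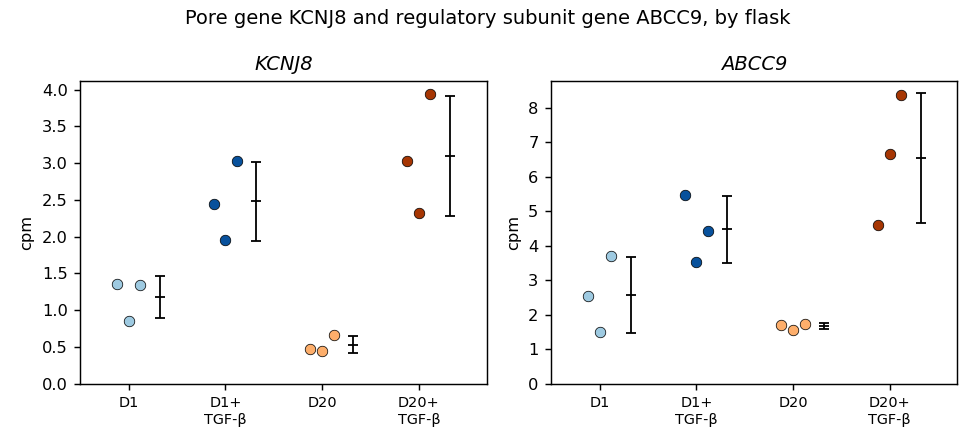
Levels in cpm (linear axes from 0) of the pore gene KCNJ8 and the regulatory subunit gene ABCC9, by flask, with the mean ± SD. In both, the D20+ TGF-β flasks are above the D20 flasks, at 2.32 to 3.94 against 0.447 to 0.661 cpm for KCNJ8 and at 4.60 to 8.36 against 1.56 to 1.74 cpm for ABCC9.

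Of the 104 potassium channel genes in the count table, 26 had 0 counts in all 12 libraries, 42 had counts too low for either fit, and 36 were tested, 4 of them over 10 cpm. The 30 tested genes that are not members moved in both directions. Of the 29 lower ones, 3 were called with TGF-β at day 1 (1 higher and 2 lower), where 6.36% of all lower genes were, and 11 at day 20 (5 higher and 6 lower), where 18.7% were. With time, 6 were called in treated cultures (5 higher and 1 lower), near the share of 21.2% for all lower genes, and 13 in untreated cultures (10 higher and 3 lower), where 22.9% were. Their median log2 fold changes were -0.20 and -0.15 with TGF-β at day 1 and day 20, against -0.04 and 0.02 for all lower genes, and 0.13 and -0.04 with time in treated and untreated cultures, against 0.19 and 0.16. The difference of responses was called for 1 of the 29 (4.14% of all lower genes), KCNH2. The remaining gene, KCNJ2, is named because it was the only other family gene over 10 cpm.

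**Figure D5:**
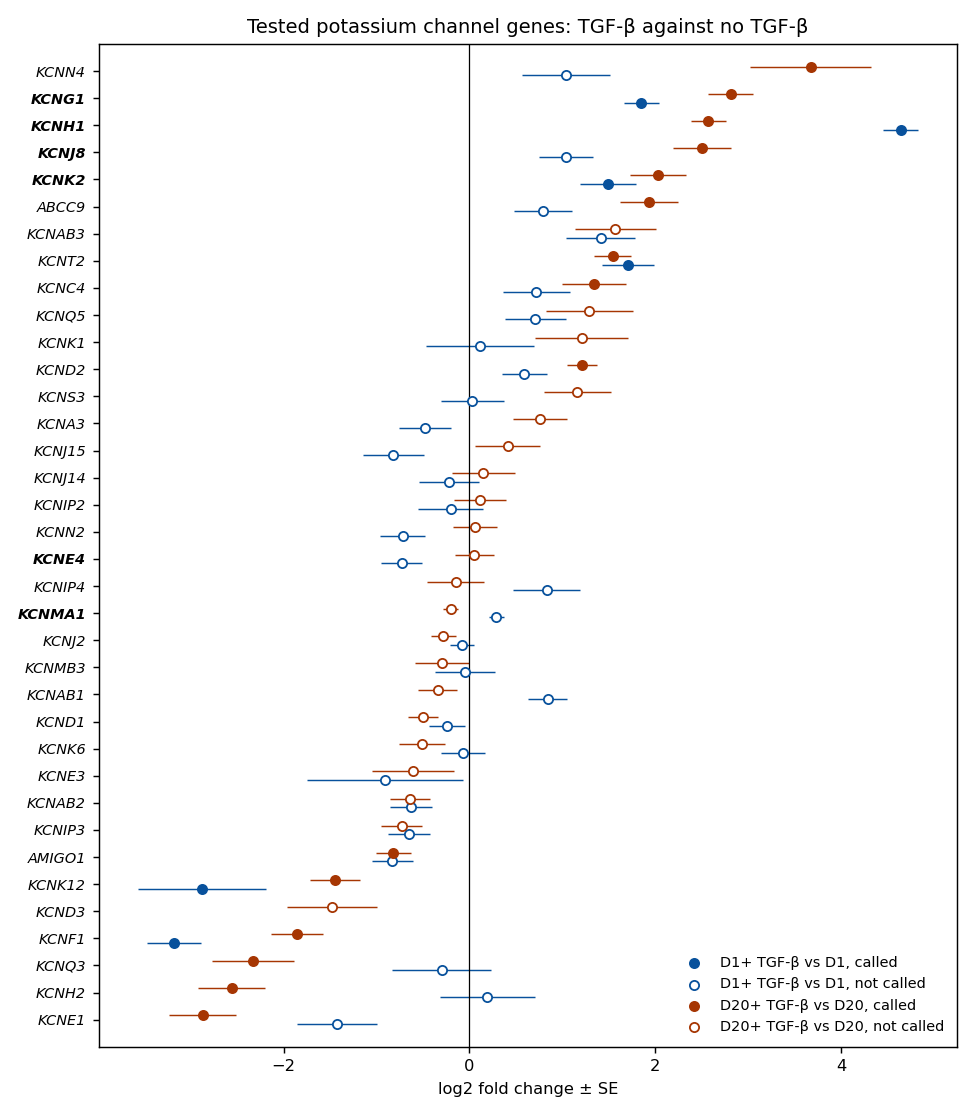
Log2 fold change ± SE (horizontal axis) with TGF-β at day 1 (blue) and day 20 (brown) for the 36 tested potassium channel genes, filled where called, with the 6 members in bold and the genes ordered by the day 20 value. KCNG1, KCNH1, KCNJ8 and KCNK2 lie near the upper end, below KCNN4 at 3.67 (2.65 to 4.73 over the alternatives), and the lowest is KCNE1 at -2.87. The day 1 value of KCND3 is not drawn because its D1+ TGF-β flasks had 0 counts.

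Among voltage-gated pore genes, the relatives of KCNH1, 9 of 30 were tested. With TGF-β at day 20, 4 of the 8 besides KCNH1 were called, 2 higher and 2 lower, where 18.7% of all lower genes were. KCNH2, which encodes hERG, the channel of cardiac repolarization and a relative of KCNH1, had 1.10, 0.196 and 0.754 cpm at D1, 0.814, 0.781 and 0.583 at D1+ TGF-β, 3.81, 5.21 and 5.53 at D20, and 1.01, 1.01 and 0.376 at D20+ TGF-β. Only the D20 flasks were high. It rose in untreated cultures with time (2.86 ± 0.37, adjusted p = 2.37e-05, edgeR) and was lower with TGF-β at day 20 (-2.56 ± 0.36, adjusted p = 6.52e-05, edgeR), where KCNH1 was higher. KCNQ3, which encodes an M-current subunit of neurons, fell with TGF-β at day 20 as well, by 2.33 on the log2 scale (SE 0.44, adjusted p = 0.000792, edgeR). KCNQ5 of the same subfamily was lower at day 20 than at day 1 with TGF-β (-1.76 ± 0.36, adjusted p = 0.00123, edgeR) and without it (-2.34 ± 0.42, adjusted p = 0.000424, edgeR). One D20+ TGF-β flask, replicate 3, had 5.82 cpm of KCNQ5 against 1.57 and 1.71 in the others, and without it the first value was -2.59.

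KCND2 and KCND3 encode channels of the fast transient A-type current. KCND2 rose from 2.20, 1.31 and 1.34 cpm at D1 to 6.28, 6.93 and 6.13 cpm at D20 (1.97 ± 0.21, adjusted p = 3.29e-06, edgeR). It rose from 2.91, 2.07 and 2.45 cpm at D1+ TGF-β to 15.1, 16.8 and 12.9 cpm at D20+ TGF-β (2.59 ± 0.19, adjusted p = 3.84e-07, edgeR), and it rose with TGF-β at day 20 (1.21 ± 0.16, adjusted p = 3.8e-05, edgeR). KCND3 rested on 4 counts at D1 and 0 with TGF-β, and on 57 at D20 and 19 with TGF-β. It was higher at D20 than at D1 (3.61 ± 0.65, adjusted p = 0.000653, edgeR). All 4 D1 counts came from replicate 1, so that without it D1 was at 0 and the fitted value, 7.16, is no bound, and with lanes as samples the value was 2.75. It was at least 5.79-fold higher at D20+ TGF-β than at D1+ TGF-β, taking 3 counts over the D1+ TGF-β group as the floor.

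Of the silent subunits, to which KCNG1 belongs, 3 of 10 were tested. KCNF1, another silent subunit, moved opposite to KCNG1 with TGF-β. Its flasks had 16.5, 29.8 and 15.6 cpm at D1 and 2.44, 2.23 and 2.22 cpm at D1+ TGF-β, and then 14.1, 9.39 and 11.4 cpm at D20 and 4.09, 2.92 and 2.16 cpm at D20+ TGF-β. The log2 fold changes with TGF-β were -3.18 ± 0.29 at day 1 and -1.86 ± 0.28 at day 20 (adjusted p = 3.76e-06 and 0.000126, edgeR). Per length of canonical transcript, KCNF1 went from 9.002 ± 3.48 to 1.002 ± 0.0550 cpm per kb at day 1, while KCNG1 went from 2.84 ± 0.796 to 10.4 ± 0.254. The more abundant of these 2 transcripts per length was thus KCNF1 without and KCNG1 with TGF-β at both days, also with the length of all exons. D20 had 5.06 ± 1.03 of KCNF1 and 0.778 ± 0.254 of KCNG1, and D20+ TGF-β had 1.33 ± 0.425 and 5.68 ± 1.20.

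Of the calcium- and sodium-activated pores, the group of KCNMA1, 4 of 8 were tested. KCNN4, the intermediate-conductance channel known from T cells and fibroblasts, had 0.0952, 0 and 0.180 cpm at D20, on 4 counts in all, and 0.841, 1.11 and 2.35 cpm at D20+ TGF-β, a log2 fold change of 3.67 ± 0.65 (adjusted p = 0.000494, edgeR). On so few counts it ran from 2.65 with lanes as samples to 4.73 without D20 replicate 3. At day 1 it was 1.04 ± 0.47 (adjusted p = 0.136, edgeR), with means of 0.623 cpm at D1 and 1.32 cpm at D1+ TGF-β. Day 20 against day 1, KCNN4 was at -2.57 ± 0.76 without TGF-β (adjusted p = 0.0126, edgeR, not called). With TGF-β that value was 0.06 ± 0.41 (adjusted p = 0.923, edgeR). KCNT2, a sodium-activated channel, rose with TGF-β at both days, by log2 fold changes of 1.71 ± 0.28 and 1.54 ± 0.20 (adjusted p = 0.000628 and 3.64e-05, edgeR). With time KCNT2 rose in treated cultures by 1.33 ± 0.20 (adjusted p = 0.000138, edgeR) and in untreated cultures by 1.49 ± 0.28 (adjusted p = 0.000582, edgeR). Its level per length at D20+ TGF-β was 0.886 ± 0.0892 cpm per kb, where KCNMA1 had 16.2 ± 1.74 (0.737 and 2.58 with all exons).

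Among the inward rectifiers, the group of KCNJ8, 4 of 15 were tested. KCNJ2, which carries the classical inward rectifier current, had 33.8, 26.1 and 30.8 cpm at D1 and 31.4, 26.7 and 28.1 cpm at D1+ TGF-β, and then 57.5, 65.1 and 67.6 cpm at D20 and 54.1, 60.3 and 42.0 cpm at D20+ TGF-β. It rose with time, with a log2 fold change of 1.08 ± 0.13 without and 0.87 ± 0.13 with TGF-β (adjusted p = 1.52e-05 and 0.000141, edgeR), where KCNJ8 was -1.13 ± 0.37 and 0.33 ± 0.25. With TGF-β its log2 fold change was -0.08 ± 0.13 at day 1 and -0.28 ± 0.13 at day 20 (adjusted p = 0.718 and 0.0849, edgeR).

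Of the leak channels with tandem pore domains, the group of KCNK2, 4 of 15 were tested. KCNK12, a subunit largely retained inside the cell, had 19 counts at D1 and 2 with TGF-β, and 124 at D20 and 43 with TGF-β. It was lower with TGF-β, where KCNK2 was higher. At day 20 the log2 fold change was -1.45 ± 0.27 (adjusted p = 0.000678, edgeR). At day 1 it was called at an adjusted p of 0.00862 (edgeR), and the ratio of D1 to D1+ TGF-β in cpm was 8.53 with a 95% exact counting interval of 2.06 to 75.5. That call was lost in 14 of 20 alternatives, where the adjusted p ran from 0.00571 to 0.0606. KCNK12 rose with time in untreated cultures (2.61 ± 0.31, adjusted p = 1.12e-05, edgeR), and in treated cultures the ratio was 19.6 with an interval of 5.12 to 167.

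Of the auxiliary subunits, the group of KCNE4, 12 of 26 were tested, all of them lower genes. With TGF-β at day 20, 3 were called, 1 higher and 2 lower, where 18.7% of all lower genes were. KCNE1, the small subunit that slows KCNQ1 channels, had 2.95, 3.43 and 3.06 cpm at D20 and 0.224, 0.605 and 0.563 cpm at D20+ TGF-β, a log2 fold change of -2.87 ± 0.36 (adjusted p = 2.55e-05, edgeR), while KCNE4 was at 0.05 ± 0.21. KCNE3, which holds KCNQ1 channels open in epithelia, rose with time without TGF-β by 2.03 ± 0.53 (adjusted p = 0.00610, edgeR), a call that was lost in 6 of 20 alternatives.

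Potassium channels act on calcium entry, and of 43 fixed genes of calcium entry and release 30 were tested. Of the 19 over 10 cpm, 6 were called with TGF-β at day 1 (13.4% of all such genes) and 8 at day 20 (27.5%), and of the 11 lower ones 3 (6.36% of all lower genes) and 5 (18.7%). Of these calls, 7 at day 1 and 8 at day 20 were lower with TGF-β. PIEZO2, a stretch-opened cation channel, fell at both days (-1.67 ± 0.25 and -2.60 ± 0.23, adjusted p = 0.000321 and 1.84e-06, edgeR), where the stretch-opened KCNK2 was higher. CACNA1A and CACNB3, subunits of voltage-gated calcium channels, were lower at day 1 (-1.03 ± 0.16 and -0.68 ± 0.11, adjusted p = 0.000466 and 0.000786, edgeR). At day 20 their treated flasks also lay below the untreated ones. CACNA1A was at 3.38 to 4.33 against 9.46 to 12.2 cpm, and CACNB3 at 28.8 to 36.0 against 45.3 to 48.1 cpm. ITPR3, a calcium release channel of the endoplasmic reticulum, was higher with TGF-β at day 20 (1.84 ± 0.15, adjusted p = 6.2e-07, edgeR). Its untreated level fell with time, from a mean of 99.3 to 30.7 cpm (-1.69 ± 0.15, adjusted p = 8.44e-07, edgeR). The treated means of ITPR3 stayed close, with 116 cpm on day 1 and 109 cpm on day 20. The calcium pump gene ATP2B4 was lower with TGF-β at day 20 (-1.15 ± 0.09, adjusted p = 5.66e-07, edgeR). ITPR3 and ATP2B4 differed in response between the days (1.62 ± 0.20 and -0.88 ± 0.13, adjusted p = 0.000134 and 0.000423, edgeR). ORAI3, of store-operated entry, rose in treated cultures with time (1.42 ± 0.12, adjusted p = 2.29e-06, edgeR), when 7 of the 19 (34.8%) and 1 of the 11 (21.2%) were called. Without treatment 11 of the 19 (36.4%) and 1 of the 11 (22.9%) were, among them ITPR2 (1.09 ± 0.10, adjusted p = 1.42e-06, edgeR) and TRPC1 (0.91 ± 0.11, adjusted p = 1.61e-05, edgeR).

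The potassium gradient itself is kept by the sodium-potassium pump and used by the cation-chloride cotransporters, and of 20 such genes 10 were tested, 8 of them over 10 cpm. With TGF-β 2 of the 8 were called at day 1 (13.4% of all such genes), both lower, and at day 20 1 of the 8 (27.5%), which was lower, and 1 of the 2 lower genes (18.7%), which was higher. SLC12A7, a potassium-chloride cotransporter, was lower at both days (-1.08 ± 0.17 and -1.60 ± 0.15, adjusted p = 0.000415 and 3.1e-06, edgeR). With time 3 of the 8 were called in treated (34.8%) and 3 in untreated cultures (36.4%), 1 higher and 2 lower in each.

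Contractile and proliferation genes also differed between the conditions, and their part in the channel gene levels was not tested. The 13 contractile genes, ACTA2 among them, summed to medians of 6281, 9794, 8443 and 6101 cpm in the 4 conditions in the same order. With TGF-β 6 of 11 genes over 10 cpm rose at day 1 (13.4% of all such genes were called), ACTA2 by 2.07 ± 0.17 (adjusted p = 2.28e-06, edgeR), and 6 of 11 fell at day 20 (27.5% called), among them LMOD1 (-2.24 ± 0.10, adjusted p = 4.77e-09, edgeR). The other 5 of the 11 were not called at day 20. ACTA2, the gene of α-smooth muscle actin, had 272, 282 and 291 cpm at D20 and 279.9, 296 and 351 cpm at D20+ TGF-β. The treated and untreated ACTA2 flasks thus overlapped. The paper reported more α-smooth muscle actin protein after long treatment with TGF-β than without it. The values given here are of RNA only. KCNH1, KCNG1, KCNK2 and KCNJ8 were higher with TGF-β in all flasks at both days. The 8 proliferation genes summed to medians of 908, 889, 125 and 309 cpm in the same order. D1 and D1+ TGF-β were alike in range (772 to 1190 and 820.4 to 918). With TGF-β 0 of the 8 were called at day 1 (13.4% of genes over 10 cpm). At day 20 all 8 were called higher (27.5%), with a median log2 fold change of 1.60. The difference of responses was called for all 8 (10.4%). With time all 8 were called lower in treated (34.8%) and untreated cultures (36.4%), CDC20 differing by -3.20 ± 0.16 for D20 vs D1 (adjusted p = 2.51e-08, edgeR).

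The genes whose log2 cpm over the 12 libraries were most like each member, by Pearson's r among the 9490 genes over 10 cpm, are given as a description. The 12 points fall into 4 conditions and share library and depth. Nearest to KCNH1 were IGFBP3 (r = 0.984), a binding protein of insulin-like growth factors at 21.7, 353, 31.7 and 175 cpm in the 4 conditions in order, SLC41A2 (0.981) and VDR (0.977), the vitamin D receptor. Nearest to KCNG1 were DOCK5 (0.984), the lncRNA MIR31HG (0.982) and TARS (0.979), a tRNA synthetase gene, and MIR31HG had 10.2, 39.6, 2.98 and 20.7 cpm. For KCNMA1 they were CAP1 (0.962), which acts on actin filaments, SH3RF1 (0.962) and UBE3C (0.959). For KCNK2 they were PCK2 (0.971), the mitochondrial form of an enzyme of gluconeogenesis, the chloride transporter gene CLCN5 (0.962) and ATF4 (0.952), a transcription factor of the amino acid response. For KCNJ8 they were PHGDH (0.987) and SHMT2 (0.982), enzymes of serine and glycine synthesis, and EIF1 (0.964), and PHGDH had 36.9, 76.1, 21.4 and 101 cpm. For KCNE4 they were XAB2 (0.966), PRRT3 (0.913) and NSMCE1 (0.905), and the last pair had the lowest r of the genes given.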

How the data were processed

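RNA was sequenced by the authors from 12 WI-38 flasks, 3 in each of 4 conditions, with a directional kit and paired reads on 4 lanes per library. Reads were cleaned with Trimmomatic and aligned to hg19 by Rsubread. The authors deposited unnormalized counts for 25702 genes in each lane. The counting program, its annotation and its use of strand are not given in the sources used here. The authors also deposited log2 cpm made by voom for 9412 genes left by their filter of 10 cpm, which hold 1 of the 6 members, KCNMA1, and were used for an alternative only. All columns matched the labels, with 0 left over. FastQC and limma are named in the submitters' processing notes.

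Lanes were summed per library. Counts were fitted in R 4.3.3 with edgeR 4.0.16 (TMM, a mean per condition over the 12 libraries, quasi-likelihood test, Benjamini-Hochberg adjustment, called at an adjusted p under 0.01). The fit of genes with 10 cpm in 6 libraries took the limit of the study's filter, which the study applied to 48 lanes, to the 12 summed libraries. KCNH1 and KCNG1 passed it here but are not among the deposited log2 values. Because 3 members were below this limit in the summed libraries, they were taken from a fit of the genes kept by filterByExpr. The common coefficient of biological variation was 9.35 and 9.89% in these fits. Standard errors include counting error at this depth. With 3 against 3 flasks an exact permutation test cannot go below p = 0.1, so none was used. Nothing states that replicate numbers mark separate cultures beyond the flask.

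The members and all gene lists were chosen with earlier results of these data known. Genes named in the text are the members, a list of partners, for each comparison the 5 other channel genes with the largest called change, the 3 called genes with the smallest p of each other list, the 3 most alike genes per member, and overlapping genes. A few that meet the rule are not given. Gene coordinates and transcript lengths are from GENCODE on GRCh37, and promoter windows from RefSeq, which held 4 of the 6 members. The code was tested on simulated data. Alternatives were RLE factors, no composition factor, DESeq2 1.42.0, limma-voom (limma 3.58.1) on 12 libraries or 48 lanes, limma on the deposited log2 values, other gene filters, fits of 6 libraries alone, omission of each library, and replicate numbers as a block.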

Additional observations from a re-analysis of the deposited data

Results flagged for a closer look

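KCNMA1 lay above its untreated flasks in every D1+ TGF-β flask and below them in every D20+ TGF-β flask. At day 20 the nearest treated and untreated flasks both round to 114 cpm. The fitted differences with TGF-β, 0.29 ± 0.08 and -0.20 ± 0.08, were small and had opposite signs. The D20 flasks of each treatment descended from 1 flask, so their spread does not measure independent treatments. The fitted responses differed by -0.49 on the log2 scale. Neither response was called by itself, and the call of the difference was lost in 15 of 21 alternatives. KCNMA1 was among genes chosen with results known, so the difference is a description and that call supports nothing.

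KCNH2 was flagged because its response to TGF-β differed between the days by -2.75 on the log2 scale in the test of the difference itself (adjusted p = 0.00922, edgeR). The level was high in the 3 D20 flasks only. Over 19 alternatives the adjusted p ran from 2.04e-06 to 0.0506, and the call was lost in 12 of them, the block and 10 of the 12 libraries left out among them.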

How the results depend on the processing

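No called value of the members reversed under the alternatives. Of 30 member values (6 genes in 5 contrasts), 18 had the same call in every alternative, and 7 moved by more than the SD between flasks in 1 of them. Calls of family genes over 10 cpm, in the order day 1 response, day 20 response, treated with time, untreated with time and difference of responses, were 2, 2, 4, 2 and 2. They became 8, 16, 11 and 19 without a filter and 6, 15, 10 and 15 with filterByExpr, which admit more genes, in the first 4, and 0, 0, 2, 1 and 1 on the deposited log2 values, which hold fewer. The difference of responses gave 1 with RLE factors, without composition factor and with the block. In the wide fit the counts were 6, 15, 10, 15 and 2, with 48 lanes as samples 15, 24, 16, 23 and 13, which count lanes of a library as flasks, and with the 10 cpm filter 2, 2, 4 and 2. With 48 lanes the genes over 10 cpm gave 4 for the day 20 response and 4 for untreated cultures with time. For the difference of responses DESeq2 gave 4, and no composition factor and the block 1. Members called were 3, 4, 3, 1 and 2. With 48 lanes they were 6 for the day 1 response, 3 for untreated with time and 4 for the difference of responses. The difference of responses gave 1 with RLE factors, without composition factor, without filter and with the block. The causes of the others were not tested.

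Leaving out each library gave, in the same order, 2 to 3, 2 to 3, 4 to 4, 2 to 3 and 1 to 2 family genes over 10 cpm, 4 to 10, 13 to 16, 8 to 12, 10 to 17 and 1 to 3 in the wide fit, and 2 to 4, 4 to 5, 3 to 4, 1 to 2 and 1 to 2 members. The highest day 1 count, 10, came without D20+ TGF-β replicate 3. The replicate numbers did not pair the flasks: deviations of same-numbered libraries correlated at -0.223 to 0.325 (median -0.0546, 18 pairs), and 5 of 12 libraries were nearest to their own number. With the replicate block 4 members were called for D1+ TGF-β vs D1 in place of 3 and 2 for D20 vs D1 in place of 1, KCNJ8 being the one added in both. Genes at 1 to 3 cpm, such as KCNJ8, rest on few counts, which limits what could be called.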
